A study of Mus musculus with 6 samples.

Results

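The genes described here are 52 members of the Wnt pathway as it works at the cell surface and in its feedback loop: 19 Wnt ligands, 13 receptors and co-receptors (the Frizzled genes Fzd1 to Fzd10, Lrp5, Lrp6 and Ror2), 9 secreted inhibitors, the R-spondins Rspo1, Rspo2 and Rspo3 with Porcn, and 7 feedback genes and nuclear effectors. Their probes were found by name, as those whose gene name in the scanner files is that of a member. The rule uses no measured value, although the list was written with earlier results of these data known. Together they had 75 of the 41174 probes and 52 of the 28034 genes named on the array. A probe was used when 4 or more of its 6 measurements in WT, or in Paraxis-/-, were well above background, and 51 members had such a probe. Rspo2, Wnt8b and Wnt10b passed through the Paraxis-/- measurements alone. In the comparison of genotypes 49 of the 52 members could be tested, against 19335 genes in all.

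Wnt proteins are secreted lipid-modified signals that bind Frizzled receptors and, for the beta-catenin branch, the co-receptors Lrp5 and Lrp6. Binding stops a cytoplasmic complex built on Axin from destroying beta-catenin, which then enters the nucleus and acts with the DNA-binding proteins Lef1, Tcf7 and Tcf7l2. Among its targets are genes that damp the pathway again, such as Axin2, Nkd1, Dkk1 and Apcdd1. In the presomitic mesoderm Wnt signalling from the tail bud forms a gradient and takes part in the segmentation clock. In young somites ligands from the dorsal neural tube and the surface ectoderm pattern the dermomyotome, and in chick Wnt6 from the ectoderm is known to sustain the Paraxis gene and the epithelial somite.

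RNA came from the anterior presomitic mesoderm and somites I to IV of C57BL/6J mouse embryos at embryonic day 9.5, either wild type (WT) or Paraxis-/-, that is, without the basic helix-loop-helix factor encoded by Tcf15. The allele is not described further in the labels. Each pool held the tissue of 5 embryos of a genotype, there were 3 pools of each genotype, and the design text calls the pools biological replicates. Every WT pool was hybridised together with 1 Paraxis-/- pool on 2 arrays with the dyes exchanged, so that 6 arrays gave 3 pairs of pools. A pair takes the letter of its WT pool, and slide 1 held pair A while slide 2 held the other two.

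Values below are log2 ratios of Paraxis-/- over WT averaged over both arrays of a pair, and pool levels are normalized log2 intensities of the probe named for the gene. Levels of different probes are not comparable with each other and were compared only within a probe. The labels were checked with Tcf15 itself, whose ratio was -5.23, -5.48 and -5.52 in pairs A, B and C. Between 27080 and 31795 of the 43379 gene spots of an array were well above background in a channel, and no spot of a member was saturated. Markers of presomitic mesoderm and somite were detected (9 of 10 tested, all but Ripply2), and so were markers of other tissues, with 9 of 10 for neural tube, 5 of 5 for neural crest, 9 of 10 for surface ectoderm, 8 of 8 for primitive blood and 7 of 7 for endothelium. In pooled tissue of this kind, fewer cells of a type and less RNA per cell cannot be told apart.

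No member passed the test between genotypes. On the log2 scale 22 of 49 members (44.9%) lay within 0.1 of 0, beside 66.1% of all genes tested. These were 7 of 17 ligands, 8 of 13 receptors and co-receptors, 6 of 8 inhibitors, 1 of 4 R-spondins and Porcn, and 0 of 7 feedback genes and nuclear effectors. The smallest p belonged to Wnt16, whose level was lower in Paraxis-/- in every pair. Higher in every pair with the probe used were Wnt6, Wnt10a, Dkk3 and 5 of the 7 feedback genes and nuclear effectors. Their means were at most 1.25-fold higher. Rspo2, which was near background in WT, was also higher in every pair. Apcdd1, Nkd1, Tcf7 and Tcf7l2, counted here, had other kept probes with pairs of both signs. The ratios farthest from 0 were in pair A, among them -1.99 for Wnt2, which was at 0.20 in pair B and -0.55 in pair C.

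By limma with Benjamini-Hochberg adjustment over all genes, 0 of 49 members had an adjusted p under 0.05, and the smallest was 0.562. Over all genes 4 of 19335 passed, or 0.0207%. At an unadjusted limma p under 0.05, 3 members were higher in Paraxis-/- (Apcdd1, Wnt6 and Wnt10a) and 4 were lower (Wnt16, Axin1, Fzd4 and Fzd8), where 2.34% and 2.73% of all genes tested were higher and lower by the same rule. The same sign in all 3 pairs was found for 9 members on the higher side and 6 on the lower side, beside 13.5% and 12.2% of all genes. Rspo2, which entered only through its Paraxis-/- measurements, is 1 of the 9. With the probe used, the levels of the 3 Paraxis-/- pools and the 3 WT pools did not overlap for Wnt6, Wnt10a and Tcf7, which were higher. They did not overlap either for Wnt16, Fzd4 and Fzd7, which were lower. Over all genes 3.05% were apart in this way on the higher side and 2.92% on the lower side. With 3 pairs an exact sign-flip test of a single gene cannot go below p = 0.25.

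**Figure D1:**
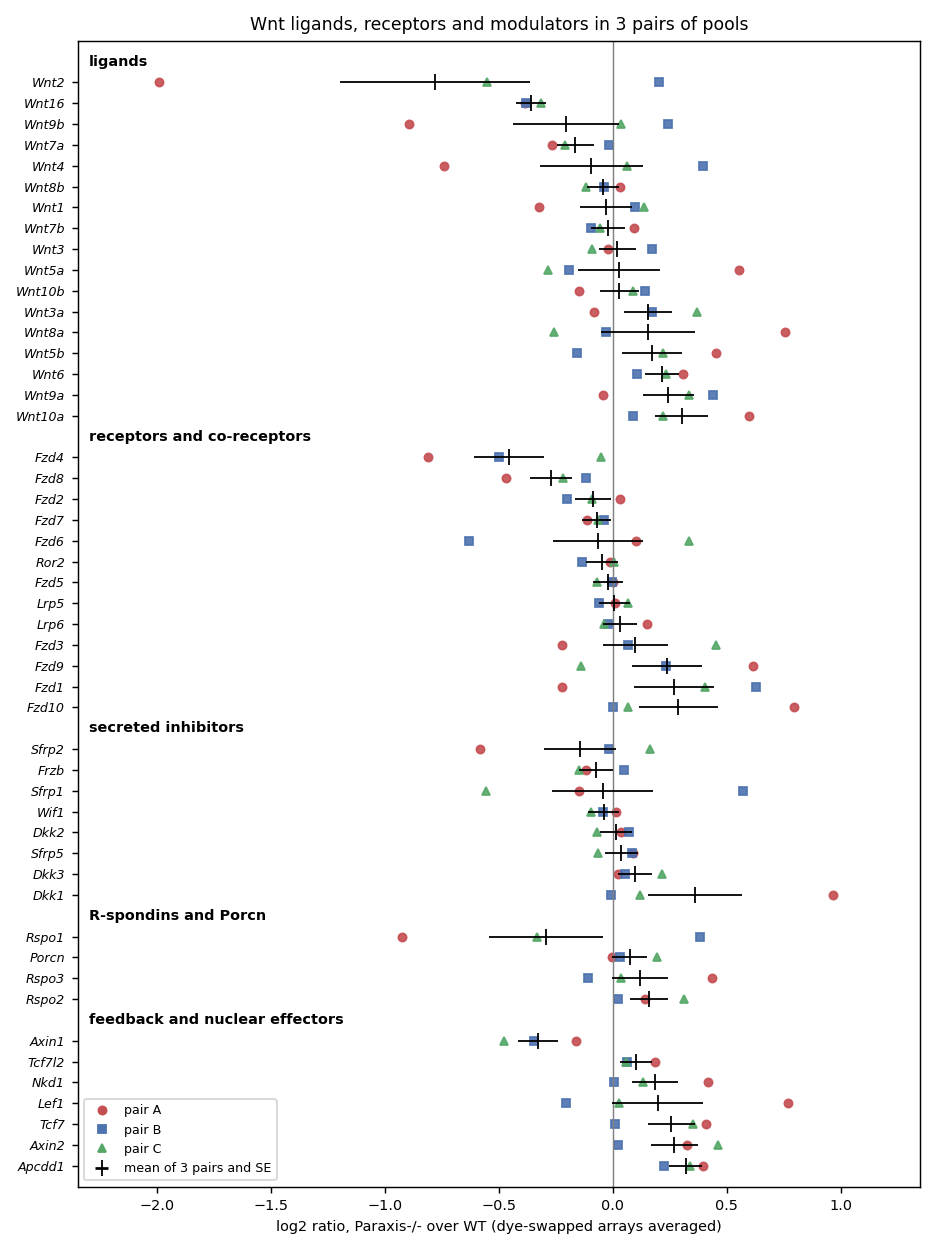
Log2 ratio of Paraxis-/- over WT (x axis) of the 49 tested members, grouped by role, with a coloured point for each pair of pools, and a black tick and line for the mean of 3 pairs and its standard error. Wnt16 has its 3 points close together at -0.38, -0.38 and -0.31, whereas Wnt2 runs from -1.99 in pair A to 0.20 in pair B.

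Among the ligands, 17 of 19 were tested and their median ratio was 0.02, with 9 above and 8 below 0. Wnt16, a ligand best known for its part in bone and joints and, in zebrafish, made by the somites, was the member with the most even difference. Its probe lies at chr6:22241089-22241148 on the plus strand (mm9), and the start of the 60-base probe is shown because this difference rests on that probe alone.
Wnt16: agtacggcatgtggttcagcagaaagtttc
Its level was 8.23, 8.18 and 8.04 in the WT pools of pairs A, B and C and 7.85, 7.80 and 7.73 in the Paraxis-/- pools. All Paraxis-/- pools were below all WT pools, and each of the 6 arrays gave a lower value. With Agilent's processed signals and with the deposited ratios the mean was -0.55. The mean log2 ratio was -0.36 with an SE of 0.07 over 3 pairs, a 1.28-fold difference with a 95% interval of -0.53 to -0.19. The limma p was 0.00298 unadjusted and 0.562 adjusted.

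Wnt6 and Wnt10a, ligands of the surface ectoderm, were the ligands that were higher in every pair. The Wnt6 level was 11.15, 11.42 and 11.37 in the WT pools and 11.46, 11.52 and 11.60 in the Paraxis-/- pools, so that the genotypes did not overlap, although the lowest Paraxis-/- pool and the highest WT pool were close. Its mean ratio was 0.22 with an SE of 0.07 (limma adjusted p = 0.933). Wnt6 had 2 probes on chromosome 1 in mm9, at chr1:74831361-74831426 and chr1:74831461-74831520, both on the plus strand. Their starts are shown since their agreement can be read only if they are different sequences.
Wnt6, dimmer probe: attcccctgaaaggccctttgctagttctg
Wnt6, brighter probe: ttcctcagaattactgggatggatgggtga
The dimmer probe had ratios of 0.21, 0.17 and 0.27 in pairs A, B and C, and the brighter had 0.31, 0.11 and 0.23. Both probes were therefore above 0 in every pair, with the same mean of 0.22.

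Wnt10a stood at 7.61, 8.05 and 7.89 in the WT pools and at 8.20, 8.14 and 8.11 in the Paraxis-/- pools. Its mean ratio was 0.30 (SE 0.12, limma adjusted p = 0.95), from pair ratios of 0.60, 0.09 and 0.22, and without pair A the mean was 0.15. The 10 surface ectoderm markers were read beside these ligands. All 9 that were tested had a mean ratio above 0, from 0.06 to 0.43, with medians of 0.54, -0.02 and 0.13 in pairs A, B and C. The largest in pair A were the keratin genes Krt8 at 1.15 and Krt18 at 1.04. The summed level of these markers was between 14.11 and 14.84 in WT pools and between 14.79 and 15.12 in Paraxis-/- pools, and Grhl3 was the marker not tested. The part of surface ectoderm in the Wnt6 and Wnt10a ratios was not tested.

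Several Wnt genes lie close to another in the mouse genome, and 4 such couples were tested. Wnt6 and Wnt10a, whose probes are 19.2 kb apart in mm9 with 2 other RefSeq genes between them, had ratios in each pair of pools that differed by at most 0.29. Wnt3a and Wnt9a (85.0 kb apart) had -0.08 and -0.04 in pair A, 0.17 and 0.44 in pair B, and 0.37 and 0.34 in the last pair. Wnt10b and Wnt1 (21.2 kb apart) were at -0.15 and -0.33, at 0.14 and 0.10, and at 0.09 and 0.14. Wnt9b and Wnt3 (88.5 kb apart) were unlike each other in pair A, at -0.90 and -0.02. In the first 3 couples the ratio in pair A was the highest, or the lowest, of the 3 pairs for both genes. In the last couple this was so for Wnt9b but not for Wnt3. Pair A was also the highest or the lowest for most of the other members, so this trait does not set neighbours apart. Couples were read on the same arrays, and Wnt10b was near background, with 3 of 6 WT measurements above it.

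Wnt2, a ligand of lateral mesoderm that is known from heart, lung and allantois, had the largest mean ratio of all members and also the largest error. The start of its probe (chr6:17939284-17939343, minus strand, mm9) is shown because the lone probe of the gene carries this value.
Wnt2: aaagagtaagcaagggctttaactaagtga
Its level was 9.34, 8.64 and 9.17 in the WT pools and 7.35, 8.84 and 8.62 in the Paraxis-/- pools. Pair A was lower by 1.99, pair C was lower by 0.55 and pair B was higher by 0.20. The mean of -0.78 had an SE of 0.42 and an interval of -1.86 to 0.30, which includes 0, and without pair A the mean was -0.17 and without pair B -1.27 (limma adjusted p = 0.95). The markers of lateral plate and intermediate mesoderm had median ratios of 0.19, 0.08 and 0.03 in pairs A, B and C. Of these markers, 6 had a mean above 0 and 2 below. Tbx5 had the largest mean, from 0.61, 0.38 and 0.52, and Gata4 was at -0.02, -0.03 and -0.04. The summed level of all 8 markers, each of them tested, was between 11.26 and 11.55 in WT pools and between 11.59 and 11.90 in Paraxis-/- pools. The genotypes did not overlap, though the highest WT pool and the lowest Paraxis-/- pool were close. Of all genes read singly, 3.05% were apart on that side. The part of this tissue in the Wnt2 ratio was not tested.

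The other ligands, named here after their values were seen, split by pair. Wnt9b and Wnt4, which are needed in kidney formation and, for Wnt4, also made in the spinal cord, were lower in pair A (-0.90 and -0.74) but above 0 in the others (0.24 and 0.39 in pair B, 0.03 and 0.06 in pair C). Wnt5a and Wnt8a, ligands of the tail bud and primitive streak, were higher in pair A (0.55 and 0.76) and below 0 in pair B (-0.19 and -0.03) and pair C (-0.28 and -0.26). Wnt3a, made in the tail bud and dorsal neural tube, had a mean of 0.15 with an SE of 0.11. Wnt7a, a ligand of the limb ectoderm and neural tube, was below 0 in every pair with a mean of -0.16 (SE 0.08). Wnt9a had a mean of 0.24 and Wnt5b of 0.17, each with pairs of both signs, and the second Wnt5b probe had a mean of -0.05. Wnt3, Wnt7b, Wnt8b, Wnt10b and Wnt1 had means between -0.04 and 0.03.

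Wnt2b and Wnt11 were the ligands not tested. Wnt2b was well above background in 0 of 6 measurements of either genotype. Wnt11, a ligand of the non-canonical branch, had its spot marked as an outlier on all 6 arrays. With outlier spots kept, a setting chosen after seeing the data, Wnt11 had ratios of -0.46, 0.17 and -0.06 in pairs A, B and C, and its arrays in pair A gave -1.58 and 0.66 for the opposite dye orientations.

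**Figure D2:**
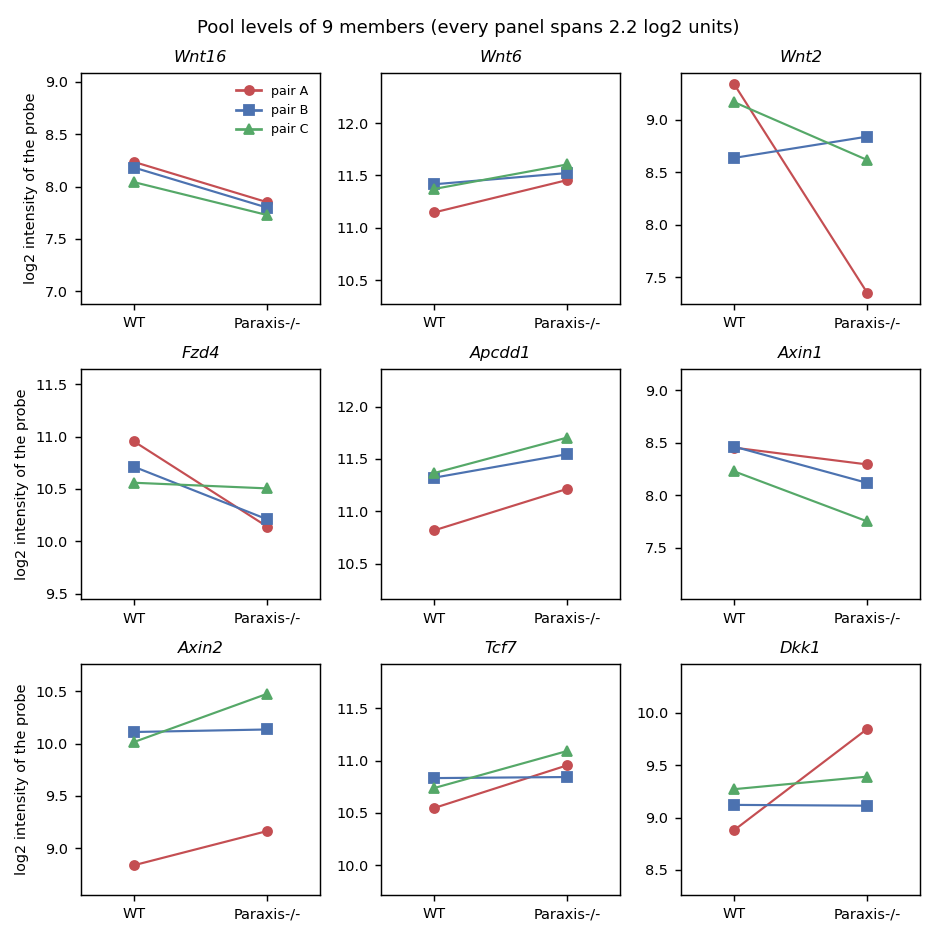
Normalized log2 intensity (y axis, the same span in every panel) of 9 members in the WT and Paraxis-/- pools, with a line joining the pools of each pair and no error bars, since every point is a pool. The lines of Wnt16 all go down, from 8.04 or more in WT to 7.85 or less in Paraxis-/-, whereas those of Wnt2 and Dkk1 part between pair A and pair B.

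All 13 receptors and co-receptors were tested. Their median ratio was -0.02, and 6 had a mean above 0 and 7 below. With the probe used, 3 were below 0 in every pair (Fzd4, Fzd8 and Fzd7). Fzd4, a receptor for Wnt ligands and for norrin that is known for its part in blood vessels, had the largest difference of the receptors. Its lone probe lies at chr7:96557478-96557537 on the plus strand (mm9) and begins as shown, because no second probe could be read beside it.
Fzd4: acacacgtaaggtatccagtggatttctct
The Fzd4 level was 10.95, 10.71 and 10.56 in the WT pools and 10.14, 10.21 and 10.51 in the Paraxis-/- pools. The genotypes did not overlap, yet the highest Paraxis-/- pool and the lowest WT pool, both of pair C, were almost level. The ratios were -0.81, -0.50 and -0.05, with a mean of -0.46 (SE 0.15, 1.37-fold, limma adjusted p = 0.933) that was -0.28 without pair A. Of the arrays of pair C, the first gave -0.49 and the dye-swapped one 0.38.

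Endothelial and blood markers were read beside Fzd4. The endothelial list had median ratios of -0.23, 0.15 and 0.03 in pairs A, B and C, with summed levels between 12.94 and 13.09 in WT pools and between 12.63 and 13.34 in Paraxis-/- pools. Primitive blood markers had medians of 0.31, 1.01 and -0.09, and their summed level was between 16.52 and 17.30 in WT pools and between 17.29 and 17.88 in Paraxis-/- pools. The part of either tissue in the Fzd4 ratio was not tested.

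Fzd8, another Frizzled receptor, had levels of 7.77, 7.36 and 7.27 in WT and 7.30, 7.24 and 7.05 in Paraxis-/-. These overlap, since the WT pool of pair C lay below the Paraxis-/- pool of pair A. The ratio was below 0 on each of the 6 arrays, with a mean of -0.27 (SE 0.09, limma adjusted p = 0.933), and the second, dimmer probe had a mean of -0.16. The mean of the brighter probe was -0.50 with Agilent's processed signals and with the deposited ratios, and -0.17 without pair A. Fzd7, a Frizzled receptor known from gastrulation, did not overlap between genotypes with its brighter probe but differed little. Its WT pools were at 11.94, 11.98 and 11.98 and its Paraxis-/- pools at 11.83, 11.94 and 11.92. The mean of this probe was -0.07 with an SE of 0.07. The second Fzd7 probe had ratios of 0.08, -0.17 and -0.16, and its pools overlapped between genotypes.

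Fzd10, a receptor of the dorsal neural tube, had its difference in pair A alone with the brighter probe. By this probe its level was 12.77, 13.58 and 13.54 in the WT pools and 13.57, 13.58 and 13.61 in the Paraxis-/- pools. The WT pool of pair A thus stood apart from all 5 others with this probe. The mean ratio of 0.29 had an SE of 0.18 and was 0.03 without pair A. The second probe of Fzd10 had ratios of 0.48, -0.32 and 0.05 with a mean of 0.07, and the mean over both probes was 0.18. With the second probe the WT pool of pair A, at 10.26, lay among the others. The Paraxis-/- pool of pair A was the highest there, at 10.74. Fzd1 went the other way in pair A, with ratios of -0.22, 0.63 and 0.40, and Fzd6 had 0.10, -0.63 and 0.33. The co-receptors Lrp5 and Lrp6 had means of 0.01 and 0.03, with 95% intervals of -0.17 to 0.18 and -0.16 to 0.22. Ror2, the receptor tyrosine kinase that binds Wnt5a, had a mean of -0.05, and Fzd5 had -0.02. Of the pair ratios of Lrp5, Ror2 and Fzd5 with the probe used, the farthest from 0 was -0.13, for Ror2 in pair B. The second Fzd5 probe was at 0.15 in pair B. Lrp6 had ratios of 0.15, -0.02 and -0.04, and its second probe had 0.18, 0.08 and -0.31. Fzd9 had 0.62, 0.23 and -0.14, with a mean of 0.24.

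Of the 9 secreted inhibitors, 8 were tested, and their median ratio was -0.01 with 4 above and 4 below 0. Dkk1, which blocks Lrp5 and Lrp6 and is itself a Wnt target in the presomitic mesoderm, had the largest mean of these at 0.36. Dkk1 had 2 probes on the minus strand of chromosome 19, at chr19:30621424-30621483 and chr19:30620529-30620588 (mm9). The starts of both are shown, because both gave the same contrast between pairs.
Dkk1, brighter probe: tactgtgttgtaaatcctcagtgtggcact
Dkk1, dimmer probe: atgcagaaggaagcctgccaacttaagcca
With the brighter probe the WT pools stood at 8.88, 9.12 and 9.27 and the Paraxis-/- pools at 9.85, 9.11 and 9.39. The ratios were 0.97, -0.01 and 0.12, and those of the dimmer probe were 0.93, -0.15 and 0.18. The difference was therefore in pair A with both probes. The mean had an SE of 0.21, and it was 0.06 without pair A and 0.54 without pair B (limma adjusted p = 0.95). The brighter probe had a dye effect of 0.77 on the log2 scale, which cancels in the mean of a pair.

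Sfrp2, a secreted Frizzled-related protein of somites and neural tube, had ratios of -0.58, -0.02 and 0.16, with a mean of -0.15 (SE 0.16). Without pair A its mean was 0.07, so its direction rests on that pair. The mean was -0.04 with median centring and -0.30 without pair C. Sfrp1 had the opposite sign in the pairs of slide 2 with its brighter probe, at 0.57 in pair B and -0.56 in pair C, with a mean of -0.05. The dimmer Sfrp1 probe had -0.13, -0.11 and -0.04 in pairs A, B and C. Dkk3, a divergent member of the Dickkopf family, was above 0 in every pair with a mean of 0.10 (SE 0.07), or 0.04 without pair C. Frzb, Wif1, Dkk2 and Sfrp5 had means between -0.07 and 0.04. Sfrp4 was complete in pair C only, where its arrays gave -1.01 and 0.69, and was not tested.

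The R-spondins raise Wnt signalling by removing the enzymes that clear Frizzled receptors from the cell surface, and Porcn adds the lipid to Wnt ligands. Their 4 genes had a median ratio of 0.10. Rspo1 stood at 11.78, 11.71 and 12.03 in the WT pools and at 10.85, 12.09 and 11.69 in the Paraxis-/- pools. Its ratios of -0.93, 0.38 and -0.33 gave a mean of -0.29 with an SE of 0.25, and the mean was 0.02 without pair A and -0.63 without pair B. Rspo3 had ratios of 0.43, -0.11 and 0.03, with a mean of 0.12 that was -0.04 without pair A, 0.23 without pair B, and 0.28 with Agilent's processed signals and with the deposited ratios. Rspo2 was above 0 on each of the 6 arrays with a mean of 0.16 (SE 0.08), but only 2 of its 6 WT measurements were well above background, against 6 of 6 for Paraxis-/-. Its mean was 0.72 with Agilent's processed signals and with the deposited ratios, 0.24 with a normexp offset of 16, and 0.08 without pair C. Porcn had a mean of 0.07.

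All 7 feedback genes and nuclear effectors were tested, and their median ratio was 0.20, beside 0.00 over all genes tested. By pair the median was 0.40, 0.01 and 0.13. With the probe used, 6 of the 7 had a mean above 0, 5 were above 0 in every pair, and Axin1 was below 0 in every pair. Axin1, a scaffold rather than a feedback gene or nuclear effector, was counted in this group, and the target Dkk1 was counted with the inhibitors. The other kept probes of Apcdd1, Nkd1, Tcf7 and Tcf7l2 had pairs of both signs. Axin1 and Axin2 had a lone probe. None of the 7 genes passed the test, and the medians and counts come from the same 3 pairs as every other value here.

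Apcdd1, a membrane protein that binds Wnt and its co-receptor and is a target of the pathway, had levels of 10.82, 11.32 and 11.37 in WT and 11.21, 11.55 and 11.70 in Paraxis-/-. The levels overlap between genotypes because both pools of pair A were dimmer, while the ratio was above 0 on each of the 6 arrays. Its mean was 0.32 (SE 0.07, limma adjusted p = 0.736). The other probe of Apcdd1 was far dimmer, with pools between 6.61 and 6.83, and had ratios of -0.07, -0.09 and 0.03, so the difference was seen with the brighter probe alone. The mean over both probes was 0.14.

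Axin1, the scaffold of the beta-catenin destruction complex, and Axin2, its inducible counterpart and a cycling gene of the presomitic mesoderm, differed in opposite directions. Each was read by a single probe, whose start is shown to make clear that they are separate sequences (Axin1 at chr17:26331032-26331919 and Axin2 at chr11:108811980-108812039, both on the plus strand, mm9). The Axin1 coordinates cover more genome than the 60 bases of its probe.
Axin1: accaagaaggggagctacagatactacttt
Axin2: ttctactttagactgtaaattatgcattat
Axin1 was at 8.45, 8.46 and 8.23 in the WT pools and at 8.29, 8.12 and 7.75 in the Paraxis-/- pools. Its mean ratio was -0.33 (SE 0.09, limma adjusted p = 0.866), with a dye effect of -0.50, and 1 of its 6 arrays, in pair A, was above 0 at 0.10. Axin2 was at 8.84, 10.11 and 10.02 in the WT pools and at 9.16, 10.13 and 10.47 in the Paraxis-/- pools. The ratios were 0.33, 0.02 and 0.46, with a mean of 0.27 (SE 0.10, limma adjusted p = 0.95) that was 0.18 without pair C. Both pools of pair A, on slide 1, were thus lower in Axin2 than all 4 pools of slide 2, by more than the genotypes differed. The difference between Axin1 and Axin2 was not tested.

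Nkd1, an inhibitor of Dishevelled and a cycling target, had ratios of 0.42, 0.00 and 0.13, and its second probe had -0.05, 0.25 and -0.02. Tcf7, a nuclear partner of beta-catenin, stood at 10.55, 10.83 and 10.74 in WT and at 10.95, 10.84 and 11.09 in Paraxis-/-. The pools did not overlap, though pair B was level, and the mean was 0.26 (SE 0.10). The second Tcf7 probe had ratios of 0.16, -0.21 and 0.42, with a mean of 0.12. Tcf7l2 had a mean of 0.10, with probes of both signs. Lef1, a partner of beta-catenin known from the presomitic mesoderm, had ratios of 0.77, -0.21 and 0.03, with a mean of 0.20 and an SE of 0.20. With the probe used, pair B was close to 0 for all these genes but Lef1, Axin1 and Apcdd1.

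Dkk1 and Axin2 are both textbook targets of beta-catenin, and the bases before their start sites are shown to set them side by side. The windows hold the 250 bases upstream of the start in RefSeq's GRCm38.p6, a different build from that of the probes, with capitals for the letters CTTTGA on either strand, the core that Lef1 and Tcf7 bind, and with no overlap between matches.
Dkk1 (chr19:30549497-30549746, minus strand): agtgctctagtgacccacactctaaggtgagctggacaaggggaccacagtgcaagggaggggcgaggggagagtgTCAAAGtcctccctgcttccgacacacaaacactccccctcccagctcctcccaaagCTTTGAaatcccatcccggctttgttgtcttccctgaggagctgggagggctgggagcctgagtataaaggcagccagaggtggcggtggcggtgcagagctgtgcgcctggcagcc
Axin2 (chr11:108920099-108920348, plus strand): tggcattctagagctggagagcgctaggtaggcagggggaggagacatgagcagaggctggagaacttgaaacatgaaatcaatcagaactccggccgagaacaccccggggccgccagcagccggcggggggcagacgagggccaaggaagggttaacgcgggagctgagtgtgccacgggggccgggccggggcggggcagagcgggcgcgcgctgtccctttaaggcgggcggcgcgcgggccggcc
The Dkk1 window held 2 matches and the Axin2 window 0. RefSeq windows were found for 34 of the 52 members, 42 windows in all, and 6 of them (14.3%) held a match, beside 13.8% of 32851 windows over all genes. At least 2 matches were held by 2 of the 42 windows of members (4.76%), and by 1.37% of all windows. Those 2 were the Dkk1 window shown and the window of a Lef1 start. The letters are a description of these windows, and no binding was measured.

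**Figure D3:**
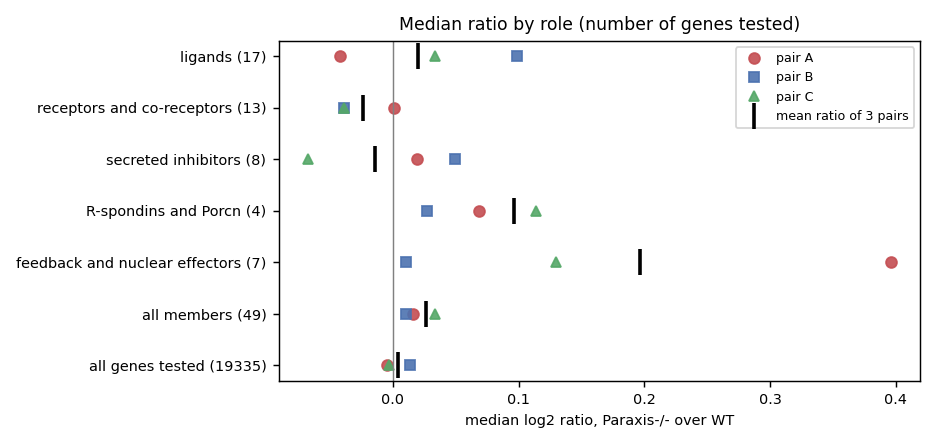
Median log2 ratio of Paraxis-/- over WT (x axis) of the tested members of each role, of all members and of all genes tested, with a coloured point per pair of pools and a black tick for the ratio averaged over 3 pairs. The feedback genes and nuclear effectors sit at 0.40, 0.01 and 0.13 in pairs A, B and C, and the medians of the ligands, receptors and inhibitors lie between -0.07 and 0.10 in every pair.

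The ratios of the members were larger in pair A than in pairs B and C. In pair A 13 of 49 members (26.5%) had a ratio of at least 0.5 in size, beside 6.25% of all genes. There were 4 such members in pair B (8.16%, beside 1.84%) and 2 in pair C (4.08%, beside 4.77%). The median size of a member's ratio was 0.23, 0.10 and 0.15 in pairs A, B and C, where over all genes it was 0.13, 0.09 and 0.11. The sign in pair A was that of the mean of pairs B and C for 25 members and the opposite for 24. Across the 49 members, which share pools and arrays, the ratios of pair A correlated with those of pair B at r = -0.18 and with those of pair C at r = 0.33, and pairs B and C at r = 0.09. Over 19262 genes the same correlations were 0.11, 0.07 and 0.17, so the pairs were little alike in the other genes too.

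Wnt targets, neural tube markers and neural crest markers that are not members also had ratios far from 0 in pair A. Of 20 Wnt targets in presomitic mesoderm and somite, 17 were tested, and their median ratios in pairs A, B and C were 0.46, -0.19 and 0.04. The tail bud regulators Cdx2, Cdx4, Tbx6 and T had 3.11, 2.76, 2.43 and 1.44 in pair A and -0.51, -0.66, -0.59 and -0.34 in pair B. In pair C Cdx2 was at -0.82, while Cdx4, Tbx6 and T were at 0.28, 0.22 and 0.39. Neural tube markers had medians of -0.29, 0.16 and 0.18, with Zic1 at -2.43 and Dbx1 at -2.12 in pair A, and the neural crest gene Sox10 was at -1.82 there. In pairs B and C, Zic1 was at 0.32 and 0.11, Dbx1 at 1.08 and 1.31, and Sox10 at 0.37 and 0.45. The summed level of the neural tube markers was between 13.56 and 14.30 in WT pools and between 13.65 and 13.94 in Paraxis-/- pools, with the WT pool of pair A the highest of all 6. For the Wnt targets it was between 16.19 and 16.52 in WT and between 16.29 and 16.50 in Paraxis-/-, with the WT pool of pair A the lowest. The members highest in pair A were Dkk1, Fzd10, Lef1 and Wnt8a and the lowest were Wnt2, Rspo1, Wnt9b and Fzd4. The part of the axial level or the neural tissue of a dissection in these ratios was not tested.

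**Figure D4:**
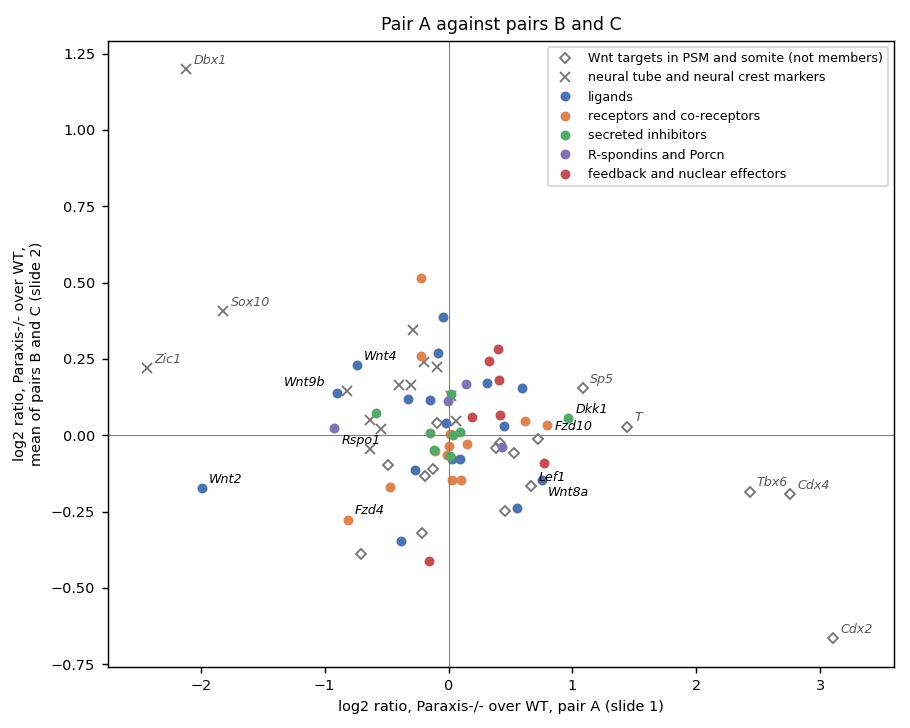
Log2 ratio of Paraxis-/- over WT in pair A on slide 1 (x axis) against the mean of pairs B and C on slide 2 (y axis), with filled points for the 49 tested members by role, open diamonds for Wnt targets that are not members and crosses for neural tube and neural crest markers. Cdx2, Cdx4 and Tbx6 lie far to the right and Zic1, Dbx1 and Sox10 far to the left, while the mean of pairs B and C stays within 0.52 of 0 for every member.

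Other genes of the pathway were read in 4 further lists. Of their 79 tested genes, 0 passed the adjusted limma test. An unadjusted limma p under 0.05 was found for 7, beside 5.07% of all genes tested. The median size of the mean ratio was 0.23 for the Wnt targets and 0.08 to 0.11 for the other lists. It was 0.15 for the members and 0.07 for all genes tested. Of 24 other extracellular and membrane regulators, 23 were tested with a median ratio of 0.05 and 0 with an unadjusted p under 0.05. Cer1, a secreted antagonist, had ratios of 2.02, 0.03 and 0.13 in pairs A, B and C. Beside it, all 5 tested of 6 notochord and endoderm markers had a mean above 0, with medians of 0.49, 0.02 and 0.12, and Spink1 was at 2.89, 0.60 and 0.12. Their summed level was between 12.19 and 12.86 in WT pools and between 12.80 and 12.98 in Paraxis-/- pools, Noto was not tested, and the part of these tissues in the Cer1 ratio was not tested. The glypican gene Gpc3 had a mean of 0.18, and so had Rnf43, the ligase that removes Frizzled receptors.

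All 25 genes of the cytoplasmic and nuclear machinery were tested, with a median of -0.05. At an unadjusted limma p under 0.05, 3 were lower, beside 2.73% of all genes tested. These were Pygo2, a nuclear cofactor of beta-catenin, at -0.25 (SE 0.07), Nkd2 at -0.30 (SE 0.10) and Btrc, the ligase subunit that marks beta-catenin for destruction, at -0.23 (SE 0.08). Each was below 0 in all 3 pairs. Beta-catenin itself, Ctnnb1, had a mean of 0.03.

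Of the 14 planar cell polarity genes, which act in the branch without beta-catenin, all were tested with a median of -0.04. Celsr1 at 0.31 (SE 0.09) and Vangl1 at 0.27 (SE 0.10) were higher at an unadjusted limma p under 0.05, beside 2.34% of all genes tested. Both were above 0 in every pair. Daam2 had ratios of -1.41, -0.14 and -0.35. Among the Wnt targets, 2 were lower at an unadjusted limma p under 0.05, beside 2.73% of all genes tested. Both were below 0 in every pair. Pax3, the dermomyotome gene, had a mean of -0.49 (SE 0.09, adjusted p = 0.571), and Myc had -0.28 (SE 0.10, adjusted p = 0.933). The smallest p after these was that of Id2, at -0.23 (SE 0.11).

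Where a member had several probes, these were compared. Of 17 members with at least 2 kept probes, 10 had the same sign in the mean with all of them and 7 did not (Apcdd1, Fzd2, Fzd3, Fzd5, Lrp6, Tcf7l2 and Wnt5b). In all 31 members, Wnt16, Fzd4, Axin1, Axin2, Wnt2 and Wnt10a among them, had a lone probe, so that no such comparison could be made.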

How the data were processed

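RNA of 6 pools was read on 6 two-colour Agilent arrays. Per the file headers, the deposited spot intensity came from Agilent Feature Extraction 10.7.3.1 (slide 1) and 10.5.1.1 (slide 2), while the submitters' processing notes name 8.5.1.1. The deposited log10 values of the series matrix were Cy5 over Cy3, within 5e-11 of those from the scanner, and each column had a median of 0. Median intensities were corrected by normexp (offset 50) and loess within arrays in limma 3.58.1 (R 4.3.3, and version 1.17.8 of data.table). The plan named mean signals, but the columns for slide 2 hold medians. The 1639 control spots had no weight and outlier spots were left out. Pool levels were normalized by Aquantile. For 2 arrays the pools named in titles and descriptions conflict, and pairs follow the titles. Arrays of the same pair by title had deviations correlated at r of 0.38, 0.62 and 0.61, and the others at -0.42 to -0.06.

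Of 41174 probes 28639 were kept, a gene was read by its brightest kept probe, and genes needed at least 2 pairs. Names came from slide 1 by probe identifier and were updated through RefSeq (GRCm38.p6, names only). Coordinates are the files' (mm9), without annotation of exons or untranslated regions. The mean of 3 pairs was tested with lmFit and eBayes, two-sided, adjusted over 19335 genes at 0.05. The members and lists were chosen with earlier results of these data known. Pair values were given for members with the same sign in every pair and either p under 0.05 or a mean of at least 0.3 in size, and for up to 3 members of each role with the largest means. Of other lists up to 3 genes with the smallest p were taken. Other genes were named after their values were seen.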

Additional observations from a re-analysis of the deposited data

How the results depend on the processing

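Under 17 alternatives (background correction, normalization, deposited ratios, filters on dim probes, choice of probe, blocks and pairing, each pair left out, and outlier spots kept, which was added after the data were seen), 0 members had an adjusted p under 0.05 in limma. The nearest was Wnt16, with an adjusted limma p between 0.0512 and 0.992. The 0.0512 came from 6 arrays with no replicate block, where dye swaps of the same extracts count as separate replicates. The next smallest for Wnt16 was 0.181, with the pair as a random replicate block. Members with an unadjusted p under 0.05 numbered 7 (14.3%, beside 5.07% of all genes). They were 4 without pair C (8.16%, beside 5.12%), 18 with the slide as a block (36.7%, beside 10.8%), 11 with no replicate block (22.4%, beside 10.3%) and 11 with the pairing in the descriptions (22.4%, beside 11.7%). All genes called numbered 4. They were 18 with scaling between arrays, 40 with the pair as a random replicate block over 6 arrays (correlation 0.47), 68 with no replicate block, 76 with the slide as a block, and 0 to 2 with a pair left out. The fits over 6 arrays count dye swaps of the same extracts as more than 1 replicate. The median of the receptors was -0.0555 with Agilent's processed signals and with the deposited ratios, 0.0235 with median centring, 0.00563 with the mean of all kept probes, and between -0.0733 and 0.0382 with a pair left out. That of the R-spondins and Porcn was 0.183 with processed signals and with deposited ratios, and between 0.0475 and 0.160 with a pair left out. The medians of the ligands (-0.03 to 0.06) and inhibitors (-0.06 to 0.05) changed sign, by less than the spread between pairs, and that of the feedback genes stayed between 0.07 and 0.37. Of the 16 members taken by the rule, 13 kept their sign under every alternative run. Their size was not kept (changes over 1.5 times stand beside each result or here). For members with the same sign in every pair, leaving a pair out or refitting the same ratios could not reverse the mean. The rule favoured such members, so for them the count tests only the alternatives that change the ratios, such as background correction and normalization. With a pair left out Rspo1 ranged from -0.630 to 0.0245, Rspo3 from -0.0377 to 0.234 and Sfrp2 from -0.300 to 0.0740, with the sign reversed in each without pair A. With the slide as a block Rspo1 was -0.45, Rspo3 0.20 and Sfrp2 -0.26. The causes were not tested. Signal limits Rspo2, Wnt8b, Wnt10b, Dkk2 and Sfrp5, which were not above background in every measurement.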
